A study of Mus musculus with 9 samples.

Results

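The endoplasmic reticulum (ER) chaperones, the unfolded protein response and the heat-shock response were examined as 36 named genes in mouse hippocampus. A gene entered when its symbol was in the table and its mean over the 9 libraries was at least 10. All 36 genes met this rule, out of 18275 genes in the table and 16196 with a mean of at least 10. Trib3 was the closest to the limit, with a mean of 10.54, and no named gene lay outside it.

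The libraries came from adult male C57BL/6N mice, 1 library per animal. 4 Nestin;BrafKE/+ mice, called mutant here, carried the Braf K499E allele switched on by Nestin-Cre, which acts from the embryo on in neural stem cells, so that both neurons and glia formed from those cells carry the allele. 5 Braf+/+ mice served as littermate controls, called control here, and whether they carried the Cre is not stated in the sources used here. Values are normalised counts from stranded mRNA libraries. The library names have 4 prefixes, which were grouped here by choice into 3 series, with 2 prefixes joined as series A. Series A holds 1 mutant and 3 control libraries, series B 2 and 1, and series C 1 and 1.

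The ER folds proteins that are to be secreted or placed in membranes. When unfolded proteins build up, 3 membrane sensors respond. ATF6 is cut to release a transcription factor, IRE1 (encoded by Ern1) splices Xbp1 mRNA into its active form, and both factors raise chaperones, folding enzymes and the degradation machinery. PERK (encoded by Eif2ak3) phosphorylates the initiation factor eIF2, which favours translation of ATF4 and with it genes of amino acid supply, redox balance and cell death. In the cytosol, misfolded proteins release HSF1, which raises HSP70, HSP90 and their co-chaperones. Splicing of Xbp1, cleavage of ATF6 and phosphorylation of PERK cannot be seen in these values, which measure the mRNA level of each gene.

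The arms differ in the control sequences that are known for them, and promoter stretches are shown for genes whose values are given later. Promoter windows of 250 bases before to 50 bases after the start, from RefSeq on GRCm38.p6, were present for 30 of the 36 genes, and no window was used for Manf, Hyou1, Atf6, Hspa8, Hsp90aa1 or Hsp90ab1. Each window was searched on both strands for 4 motifs. The ER stress response element was searched as CCAAT, any 9 bases and CCACG, and its second form as ATTGG, any base and CCACG. The ATF4 site was searched as TGATG, any base and AA, and the heat-shock element as GAA, any 2 bases, TTC, any 2 bases and GAA. The first motif was present in 0.119% of 32851 windows and in 7 of the 12 ER chaperone and folding genes with a window. Those were Hspa5, Hsp90b1, Pdia6, Calr, Canx, Creld2 and Dnajc3, and Syvn1 of the degradation genes also held it. The following stretches run 5′ to 3′ on the strand of the gene, with the match in capitals and up to 20 bases on each side.
Hspa5, plus strand, chr2:34772005-34772063: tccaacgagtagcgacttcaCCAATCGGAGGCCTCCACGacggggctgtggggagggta
Dnajc3, plus strand, chr14:118937807-118937865: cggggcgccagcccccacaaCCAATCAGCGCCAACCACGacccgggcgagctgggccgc
Canx, minus strand, chr11:50325780-50325838: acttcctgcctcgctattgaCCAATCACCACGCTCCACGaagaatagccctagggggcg
Calr, minus strand, chr8:84847055-84847113, match on the opposite strand: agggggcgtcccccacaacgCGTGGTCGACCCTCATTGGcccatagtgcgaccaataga

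The second form was present in 0.0365% of the windows, and among the 36 genes in Herpud1 and Dnajb11. The ATF4 site was present in 3.97% of the windows and in 3 of the 5 PERK-ATF4 genes, Trib3, Chac1 and Asns, and also in Herpud1. The heat-shock element was present in 0.603% of the windows, in Hsph1 of the 4 cytosolic genes with a window, and in both mitochondrial chaperonin genes. Hspd1 and Hspe1 lie head to head, and their matches are the same bases read from opposite strands. No match printed here overlapped a match to another of the 4 motifs.
Herpud1, second form, plus strand, chr8:94386357-94386407: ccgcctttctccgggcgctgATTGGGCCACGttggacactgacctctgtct
Chac1, ATF4 site on the opposite strand, plus strand gene, chr2:119351029-119351076: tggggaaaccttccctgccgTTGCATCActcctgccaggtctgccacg
Asns, ATF4 site, minus strand, chr6:7693210-7693252: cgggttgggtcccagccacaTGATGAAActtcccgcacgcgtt
Hspe1, heat-shock element matched on both strands, plus strand, chr1:55088039-55088096: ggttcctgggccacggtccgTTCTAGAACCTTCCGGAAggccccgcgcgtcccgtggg

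Each gene was tested with limma on log2(value + 1), with the series of library names as a term and p-values adjusted over all 16196 genes by the Benjamini-Hochberg method. Fold changes below are on that scale, mutant against control. The library totals lay between 19551312 and 20091532 after the authors' normalisation, so the depth of each library is unknown. Braf was lower in all 4 mutant libraries, at 2144 to 2469 against 2635 to 3030 in control libraries (log2 fold change −0.30, SE 0.07, adjusted p = 0.0379), and 7 of the 9 fits without 1 library lost this call. The 8 markers of excitatory hippocampal neurons were all above 0 in every library. In bulk tissue, fewer cells of a type and less RNA per cell cannot be told apart.

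3 of the 36 genes passed an adjusted p of 0.05, Dnajc3, Pdia4 and Atf6, and all 3 fell in the mutant hippocampus. This was 8.33% of the genes, where 2.88% of all genes tested passed, 1.36% as lower and 1.52% as higher. At an unadjusted p under 0.05, 11 of the 36 genes were lower and 1 was higher, a share of 30.6% lower. Of all genes tested, 18.5% reached this p, 9.61% as lower and 8.86% as higher. The standard errors of the 36 genes had a median of 0.07, against 0.10 over all genes. In 6 of the 36 genes every mutant library lay below every control library, and in none did every mutant library lie above. Of all genes, 15.7% showed such a separation, 8.13% below and 7.62% above. A negative log2 fold change was found in 26 of the 36 genes, or 72.2%, against 49.9% of all genes, and the median was −0.07 over the 36 genes and 0.00 over all genes. Without the term for the series, 11 of the 36 genes passed the adjusted threshold, where 14% of all genes did.

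**Figure D1:**
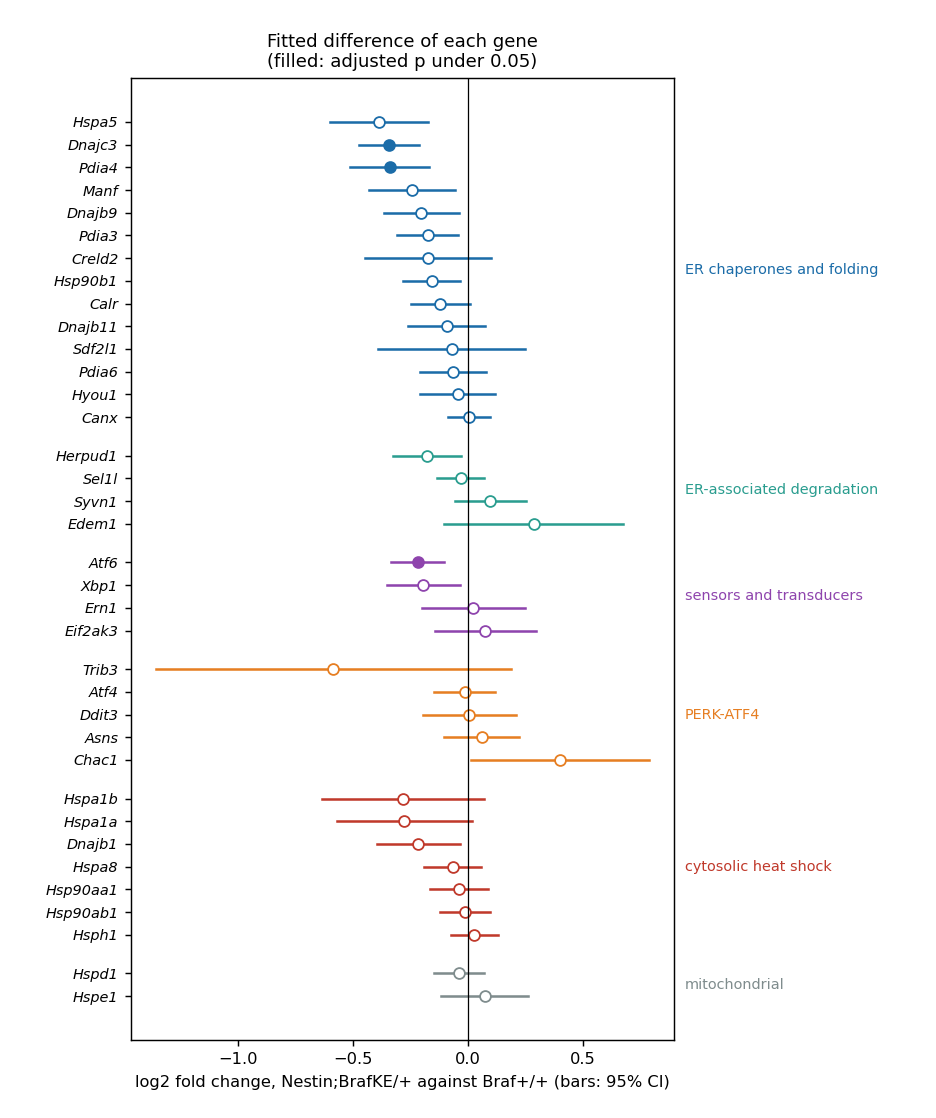
Log2 fold change of each of the 36 genes, Nestin;BrafKE/+ against Braf+/+, on the x axis, with the 95% confidence interval as a bar and genes grouped by role. Filled circles are the 3 genes past an adjusted p of 0.05, Dnajc3, Pdia4 and Atf6, and 13 of the 14 ER chaperone and folding genes lie left of 0.

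The arm raised by ATF6 and XBP1 held 18 genes, split here by choice into 14 ER chaperones and folding enzymes and 4 degradation genes. Of the 18, 15 were lower and 3 higher, with a median log2 fold change of −0.14. 2 of them passed the adjusted threshold, or 11.1%, where 2.88% of all genes tested did. The ER chaperones and folding enzymes showed the lower values most often. 13 of these 14 genes had a negative log2 fold change, 2 passed the adjusted threshold and 7 had an unadjusted p under 0.05. The median was −0.17 and the range ran from −0.39 (Hspa5) to 0.00 (Canx). 8 of the 14 genes were lower within each of the 3 series, a share of 57.1% against 18.2% of all genes tested, and none was higher within each series, where 18.3% of all genes were.

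Dnajc3 encodes a luminal co-chaperone that also restrains PERK. Its values were 1528, 1358, 1464 and 1453 in mutant replicates 1 to 4 and 1816, 1863, 1743, 1946 and 1838 in control replicates 1 to 5. The highest mutant library lay below the lowest control library. The log2 fold change was −0.34 (SE 0.06, 95% confidence interval −0.48 to −0.21, adjusted p = 0.0157). Within series A, B and C the differences were −0.24, −0.46 and −0.34. The two-sided exact permutation test gave p = 0.00794 over all libraries and p = 0.0417 with libraries exchanged only within their series, the smallest p each can give. The adjusted p rose to 0.0569 without mutant replicate 1 and to 0.103 without control replicate 4, and stayed under the threshold without any other single library. Dnajc3 is on chromosome 14, 119175317 to 119219115, plus strand (GRCm39), and the long noncoding RNA models Gm62797 and Gm62793 overlap it on the same strand.

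Pdia4 encodes a protein disulphide isomerase, which forms and rearranges disulphide bonds in the ER. It measured 732, 744, 714 and 657 in the mutant libraries and 849, 857, 975, 858 and 975 in the controls. All mutant values were below all control values, and mutant replicate 4 was the lowest. The log2 fold change was −0.34 (SE 0.08, 95% confidence interval −0.51 to −0.17, adjusted p = 0.0457), and the within-series differences were −0.28, −0.23 and −0.57. Leaving out any 1 of the 9 libraries raised the adjusted p past the threshold, to between 0.0628 and 0.138. Pdia4 is on chromosome 6, 47770077 to 47790462, minus strand (GRCm39).

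Hspa5 encodes BiP, the HSP70 of the ER lumen that holds the sensors inactive when folding is in balance, and it is given in full after its values were seen because its fold change was the largest among the ER chaperones. Its values were 4422, 4584, 4147 and 3675 in mutant libraries and 5190, 4944, 6092, 5077 and 6264 in control libraries. The groups did not overlap, with the mutant at 4207 ± 398 (SD, n = 4) and the control at 5513 ± 616 (SD, n = 5). The log2 fold change of −0.39 (SE 0.10, 95% confidence interval −0.60 to −0.18) did not pass the adjusted threshold, at an adjusted p of 0.0598. The difference was −0.77 in series C, which held the lowest mutant and the highest control library, and −0.28 and −0.22 in series A and B. Without either library of series C it was −0.25.

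The other ER folding genes gave smaller differences. Dnajb9, a BiP co-chaperone and Xbp1 target, had mutant values of 747, 695, 665 and 744 and control values of 786, 808, 828, 900 and 786. These groups did not overlap either, and the log2 fold change was −0.20 with an SE of 0.07 and an adjusted p of 0.169. Manf, a secreted ER stress protein with neurotrophic activity, ran from 607 to 694 in mutant and from 691 to 849 in control libraries, overlapping by 1 mutant library (−0.24, SE 0.09, adjusted p = 0.159). Its annotated span overlaps Rbm15b on the same strand, so that reads could be shared. Pdia3, a disulphide isomerase for glycoproteins, had −0.18 (adjusted p = 0.150) and Hsp90b1, the ER HSP90 called GRP94, had −0.16 (adjusted p = 0.164). In both genes 3 of 4 mutant libraries lay below every control library, and the difference in series A was close to 0, at −0.03 and −0.02.

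The lectin chaperones, which hold glycoproteins during folding, were not alike in value. Calr, calreticulin, had −0.12 (SE 0.06, adjusted p = 0.308), with 3 of 4 mutant libraries below all controls. Canx, calnexin, had 0.00 (SE 0.04, 95% confidence interval −0.09 to 0.09, adjusted p = 0.980), with mutant values of 6439 to 6585 and control values of 6338 to 6573. Creld2 (−0.18), Dnajb11 (−0.09), Sdf2l1 (−0.07), Pdia6 (−0.07) and Hyou1 (−0.05) had adjusted p-values from 0.495 to 0.832. Creld2, Sdf2l1, Pdia6 and Hyou1 were higher in the mutant within series B and lower within A and C. Canx and Calr both carry the ER stress response element printed above, as do Hspa5 and Dnajc3.

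**Figure D2:**
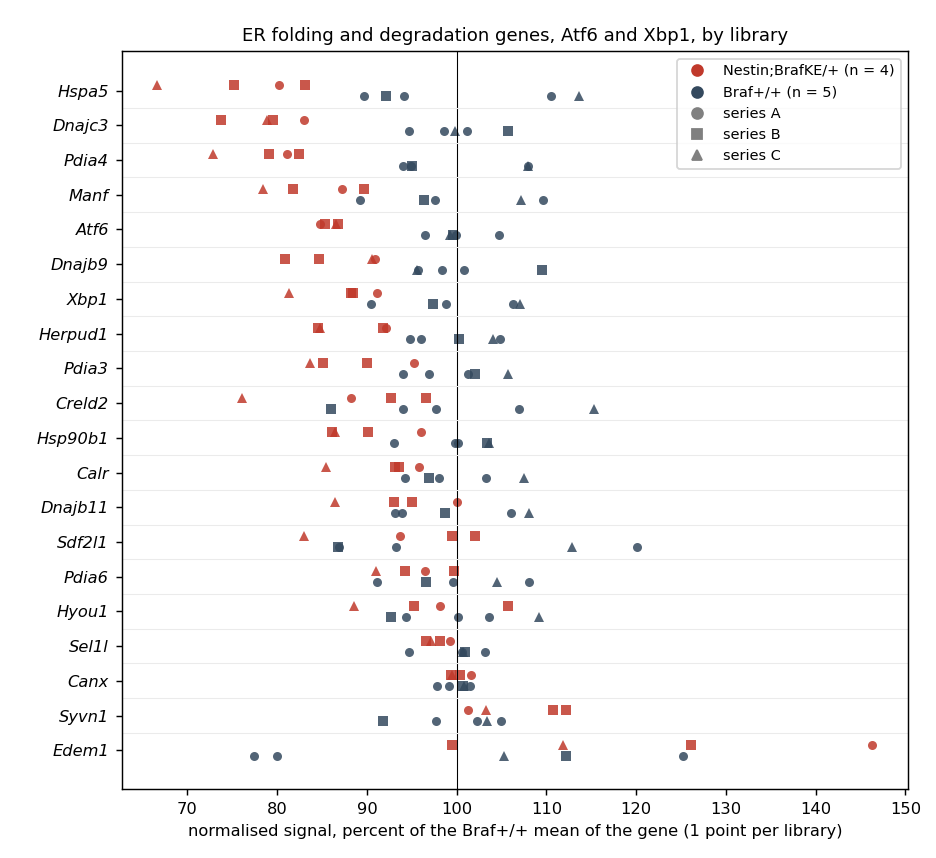
Normalised signal of 20 ER genes in each of the 9 libraries, as a percent of the gene's Braf+/+ mean on the x axis, with red points for Nestin;BrafKE/+, blue points for Braf+/+ and the marker shape giving the series of library names. In Hspa5, Dnajc3, Pdia4, Atf6, Dnajb9 and Herpud1 all red points lie left of all blue points, and in Canx and Edem1 they overlap.

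The 14 genes were also averaged within each library, as the mean log2 level after subtracting each gene's own mean over the 9 libraries. The mutant libraries were at −0.04, −0.06, −0.09 and −0.19, and the control libraries at 0.01, 0.01, 0.15, 0.04 and 0.17. The groups did not overlap. How often averages of other gene sets separate in this way was not tested. The mean difference was −0.17, or −0.10, −0.12 and −0.36 within series A, B and C. Mutant replicate 4 and control replicate 5, the 2 libraries of series C, were the lowest and the highest of all 9.

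**Figure D3:**
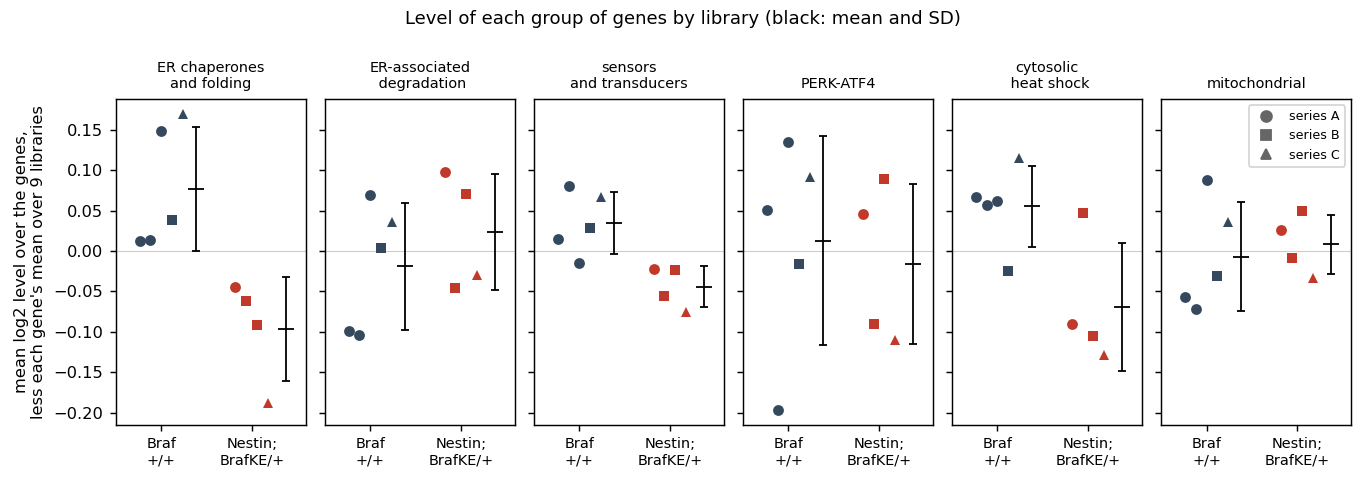
Mean log2 level of each group of genes in each library, less each gene's mean over the 9 libraries, on the y axis, by genotype, with the mean and SD in black. ER chaperones do not overlap between genotypes, at −0.19 to −0.04 against 0.01 to 0.17. The sensors and transducers are separated by a narrow gap, at −0.07 to −0.0221 against −0.0145 to 0.08, with 2 of the 4 genes lower and 2 higher. The other 4 groups overlap. Of single genes tested, 15.7% showed such a separation, and averages of other gene sets were not examined.

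Marker lists of cell types and states were summed in the same libraries. For the counts of markers past the adjusted threshold, 1.52% of all genes tested passed it as higher and 1.36% as lower. The summed level of 8 oligodendrocyte markers was 122721 to 132142 in mutant and 89284 to 108010 in control libraries, with all 8 higher and 4 past the threshold. The 8 astrocyte markers summed to 110924 to 124777 against 104157 to 117892. Of these, 6 were higher and 2 lower, with 3 past the threshold as higher and 0 as lower. The 8 choroid plexus markers come from a secretory epithelium rich in ER. Their sums ran from 1455 to 24513 in mutant and from 4698 to 392423 in control libraries. All 8 were lower and 0 passed the threshold. In control replicates 1 to 5 the sums were 4698, 392423, 7340, 114255 and 18749. The ER chaperone levels of the same control libraries were 0.01, 0.01, 0.15, 0.04 and 0.17. The 9 immediate early genes, which report recent neuronal activity, summed to 6018 to 8059 in mutant and 4609 to 5877 in control libraries, but 3 of the 9 were lower, 1 passed the threshold as higher and 1 as lower, and their median log2 fold change was 0.06. The 8 microglial markers summed to 7229 to 7983 against 6525 to 7232, with 7 higher and 0 past the threshold. The 5 blood markers summed to 3489 to 6184 against 3180 to 3579, with all 5 higher, a median log2 fold change of 0.43 and 0 past the threshold. The sums of endothelial, excitatory neuron, interneuron and glucocorticoid-response genes overlapped between the genotypes. None of these markers was at 0 in any library. The part of these lists in the ER chaperone values was not tested.

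The ER-associated degradation genes, which extract and destroy misfolded ER proteins, showed no call, and the 4 genes split between lower and higher. Herpud1, an ER membrane scaffold of the degradation complex, had the lowest p. Its values were 910, 835, 907 and 838 in mutant libraries and 949, 1035, 936, 990 and 1028 in controls. The groups did not overlap, and the log2 fold change was −0.18 with an SE of 0.07 and an adjusted p of 0.178. Edem1, which directs misfolded glycoproteins to degradation, had 0.28 (SE 0.18, adjusted p = 0.429), with differences of 0.67, −0.00 and 0.09 within series A, B and C. Syvn1, the ubiquitin ligase HRD1, had 0.10 and its partner Sel1l had −0.03, with adjusted p-values of 0.509 and 0.758.

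Of the 4 sensors and transducers, the 2 transcription factors had negative values and the 2 kinases did not. Atf6 measured 1365, 1397, 1375 and 1393 in the mutant libraries and 1686, 1553, 1609, 1604 and 1598 in the controls. The mutant values were tightly grouped and all below the controls, 1382 ± 14.9 (SD, n = 4) against 1610 ± 47.9 (SD, n = 5). The log2 fold change was −0.22 (SE 0.05, 95% confidence interval −0.33 to −0.11, adjusted p = 0.0497), and the series gave −0.24, −0.21 and −0.20. The exact permutation p was 0.00794 over all libraries and 0.0417 within series, again the smallest p each can give. The adjusted p lay just inside the threshold and was 0.0680 to 0.199 when any 1 library was left out. Atf6 is on chromosome 1, 170532026 to 170696208, minus strand (GRCm39).

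Xbp1, the transcription factor that IRE1 activates, had −0.20 (SE 0.07, adjusted p = 0.177). Its values were 1068 to 1198 in mutant and 1188 to 1407 in control libraries, with 3 of 4 mutant libraries below all controls. The table gives 1 value for all Xbp1 mRNA, spliced and unspliced together. Ern1 had 0.02 (SE 0.10, 95% confidence interval −0.20 to 0.25) and Eif2ak3 had 0.07 (SE 0.10, 95% confidence interval −0.14 to 0.29), with adjusted p-values of 0.935 and 0.733.

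The PERK-ATF4 genes did not share the direction of the ER chaperones. None of the 5 passed the adjusted threshold with limma, 1 had an unadjusted p under 0.05, and the median log2 fold change was 0.00. Atf4 itself had −0.02 (SE 0.06, 95% confidence interval −0.15 to 0.12, adjusted p = 0.925), with 2010 to 2266 in mutant and 1999 to 2258 in control libraries. Asns, asparagine synthetase, had 0.06 (adjusted p = 0.714). Ddit3, which encodes the death-promoting factor CHOP, had 0.00 (SE 0.09, adjusted p = 0.986), and another gene model of the same symbol overlaps it on the same strand.

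Chac1, which breaks down glutathione, had the lowest p of the PERK-ATF4 genes and the opposite direction to the chaperones. It measured 124, 107.3, 131 and 113 in the mutant libraries and 96.4, 66.0, 107.5, 89.4 and 94.1 in the controls. 3 of the 4 mutant libraries lay above every control library. The log2 fold change was 0.40 (SE 0.18, 95% confidence interval 0.01 to 0.79, adjusted p = 0.256), at 0.49, 0.40 and 0.26 in the 3 series. Trib3, a pseudokinase that ATF4 and CHOP raise, had the lowest level of the 36 genes and a widely spread log2 fold change, −0.59 (SE 0.35, adjusted p = 0.412). Its values were 5.982 to 9.984 in mutant and 9.001 to 15.01 in control libraries. Chac1, Trib3 and Asns all hold the ATF4 site, and their log2 fold changes were 0.40, −0.59 and 0.06.

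The cytosolic heat-shock genes had negative log2 fold changes in 6 of 7 cases, with 0 past the adjusted threshold with limma, 1 at an unadjusted p under 0.05 and a median of −0.07. Dnajb1, the HSP40 partner of HSP70, had the lowest p. It measured 732, 858, 773 and 749 in mutant libraries and 851, 984, 930, 821 and 936 in controls. 3 of 4 mutant libraries lay below all controls, and the log2 fold change was −0.22 with an SE of 0.08 and an adjusted p of 0.191. The differences in series A and C were −0.33 and −0.32, and that in series B was −0.01.

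The stress-inducible HSP70 genes Hspa1a and Hspa1b each had a log2 fold change of −0.28, with adjusted p-values of 0.299 and 0.386. Their coding sequences of 1923 and 1926 bases are 99.4% identical, with 11 positions differing or gapped, and they lie 9951 bases apart on chromosome 17 (GRCm39). The split of reads between them is therefore uncertain. Summed, a choice made after seeing the data, they gave −0.28 (SE 0.12, 95% confidence interval −0.56 to −0.01, adjusted p = 0.258).

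The abundant constitutive chaperones differed little. Hspa8, which encodes the constitutive HSP70 called HSC70, had −0.07 (SE 0.06, 95% confidence interval −0.19 to 0.06). Hsp90ab1, the constitutive cytosolic HSP90, had −0.01 (SE 0.05, 95% confidence interval −0.12 to 0.09), and the inducible Hsp90aa1 had −0.04 (SE 0.06, 95% confidence interval −0.17 to 0.08). Hsph1, the exchange factor HSP110, had 0.03 (SE 0.05, 95% confidence interval −0.08 to 0.13). Their adjusted p-values were 0.561 to 0.915. Of the mitochondrial chaperonin pair, Hspd1 (HSP60) had −0.04 and Hspe1 (HSP10) had 0.07, with adjusted p-values of 0.708 and 0.704.

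**Figure D4:**
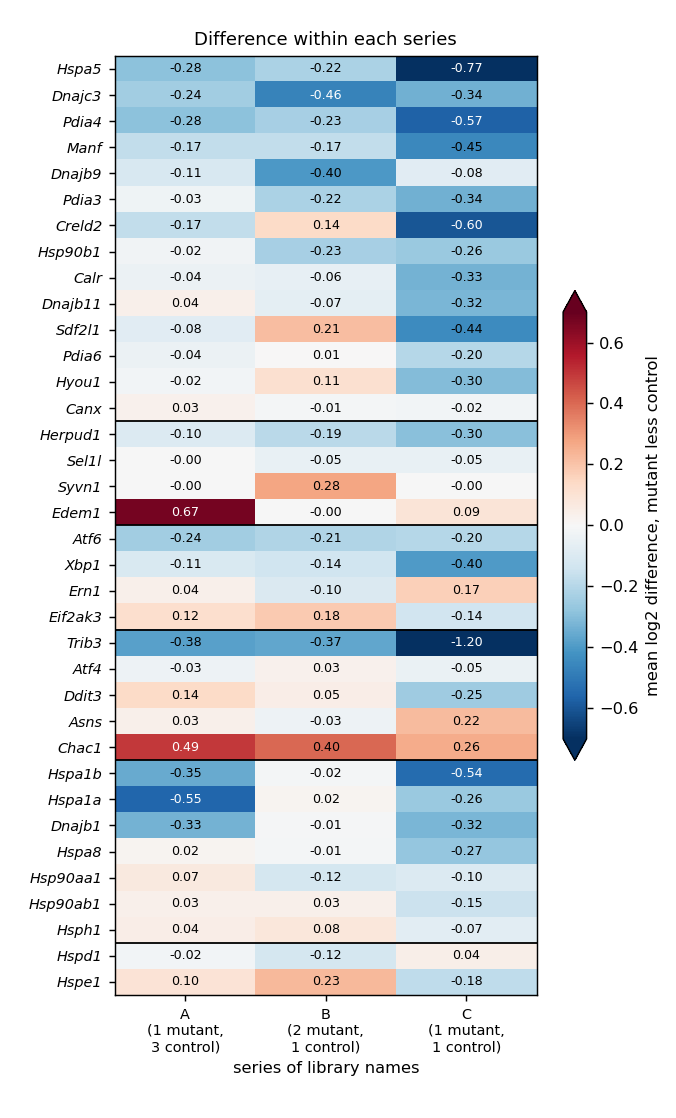
Mean log2 difference, Nestin;BrafKE/+ (mutant) less Braf+/+ (control), of each of the 36 genes within each of the 3 series of library names, as colour and number, with black lines between the gene groups. Dnajc3, Pdia4, Hspa5 and Atf6 are negative in all 3 series, and Chac1 is positive in all 3. Trib3 and all ER chaperones and folding enzymes except Dnajc3 and Dnajb9 have their most negative difference in series C. Series C holds 1 library of each genotype.

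The rest of each pathway was read from 3 wider lists that share no gene with the 36. Of 50 other genes of ER folding, translocation and degradation, 27 were lower and 23 higher, and 0 passed the adjusted threshold with limma. The unadjusted p was under 0.05 in 4 lower and 2 higher genes, where 9.61% and 8.86% of all genes were lower and higher. Their median log2 fold change was −0.01, against −0.17 for the 14 ER chaperones and folding enzymes. 7 of the 50 were lower within all 3 series and 10 were higher, where 18.2% and 18.3% of all genes were. Chosen after the values were seen, Dnajc1, an ER membrane co-chaperone, had −0.47 (SE 0.14, adjusted p = 0.0971) and Sec11c, a signal peptidase subunit, had 0.20 (SE 0.06, adjusted p = 0.105).

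Of 34 other genes of the integrated stress response, 13 were lower and 21 higher, with a median of 0.06. At an unadjusted p under 0.05, 1 was lower and 5 higher, where 9.61% and 8.86% of all genes were. Within all 3 series, 2 of the 34 were lower and 10 higher, where 18.2% and 18.3% of all genes were. 1 of the 34 passed the adjusted threshold with limma, or 2.94%, where 2.88% of all genes tested did. It was Psat1, an enzyme of serine synthesis, with a log2 fold change of 0.27, an SE of 0.06 and an adjusted p of 0.0416. It ran from 2580 to 2982 in mutant and from 2170 to 2357 in control libraries, without overlap, and lost the call in 8 of the 9 fits that leave out 1 library. Phgdh and Psph, the enzymes before and after it, had 0.20 and 0.26 (adjusted p = 0.215 and 0.214, named after their values were seen). Slc7a11, the cystine transporter, had −0.38 (adjusted p = 0.16, also named after its values were seen), at −0.75 in series A and −0.02 in series C.

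Of 46 other heat-shock and chaperone genes, 23 were lower and 23 higher, with a median of −0.00. 1 of the 46 passed the adjusted threshold with limma, or 2.17%, where 2.88% of all genes tested did. That gene was Chordc1, an HSP90 co-chaperone, and its log2 fold change was −0.36 with an SE of 0.09 and an adjusted p of 0.0497. Its values were 1236 to 1414 in mutant and 1545 to 1936 in control libraries, without overlap, and 8 of the 9 fits without 1 library lost the call. At an unadjusted p under 0.05, 8 of these genes (17.4%) were lower and 4 higher, where 9.61% and 8.86% of all genes were. Within all 3 series, 14 of the 46 (30.4%) were lower and 9 higher, where 18.2% and 18.3% of all genes were.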

How the data were processed

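Stranded mRNA libraries (TruSeq) were made from the hippocampus of 4 Nestin;BrafKE/+ and 5 Braf+/+ mice. The authors trimmed reads with TrimGalore, aligned them with STAR to GRCm39, quantified them with Salmon, adjusted for batches and scaled with DESeq2. The deposited values are a signal of normalised counts. In each library they are whole multiples of 1 step (tolerance 0.01), but mt-Co1 has the same whole number in all 9 libraries, so these are adjusted values and not reads, and no count model was used.

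Genes with a mean of at least 10 were tested on log2(value + 1) with limma 3.58.1 in R 4.3.3, using lmFit and the trended eBayes, two-sided. The terms were genotype and the series of library names (A: 84- and 85-, joined by choice, B: HPC-, C: NES-). The authors' batches are not named in the sources used here, and the name series stands in for them. Adjusted p-values are Benjamini-Hochberg over all genes tested, and within-series differences are of mean log2 values. The script was tested on simulated data with independent noise, without series effects or an earlier batch adjustment. That test therefore cannot give the error rates of these data. Shown in full were genes past the threshold and the gene with the lowest p in each group, with Braf as the targeted gene. The genes and lists were chosen with earlier results of these data known. Gene coordinates are from the GRCm39 annotation and promoter windows from RefSeq on GRCm38.p6. Alternatives were 10 other settings, each of the 9 libraries left out, and the sum of Hspa1a and Hspa1b, added after seeing the data. P-values rest on the spread between these animals that remains after the authors' batch adjustment and the series term. The fit made no allowance for the earlier adjustment, so the p-values may be too small.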

Additional observations from a re-analysis of the deposited data

Results flagged for a closer look

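The 36 genes, Psat1, Chordc1 and Braf were checked for a library far from the rest of its group, in 78 groups of 4 or 5 libraries, where chance marks about 1 group in 20. 1 group was marked. Hspa8, the constitutive HSP70, measured 38077 in control replicate 5, against 34590 to 35022 in the other 4 control libraries, a gap of 0.876 of the range of the group. The same library had the highest ER chaperone level of the 9.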

How the results depend on the processing

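Of 683 values of the 36 genes under the alternatives, 618 kept their direction and side of the threshold, 27 lost the call, 10 gained it and 28, in 13 genes, changed sign, none of them called in the reported fit. The sign changes were all small. Canx was −0.0147 with quantile normalisation, Ddit3 was −0.0294 with 4 name prefixes as the term and −0.0163 with array quality weights, and Hsp90ab1 was 0.00381 with the replicate block. Leaving out 1 library gave ranges of −0.0155 to 0.0108 for Canx, −0.0800 to 0.0931 for Ddit3, −0.0448 to 0.0343 for Hsp90ab1, −0.225 to 0.0573 for Sdf2l1, −0.131 to 0.0445 for Hyou1, −0.00230 to 0.159 for Syvn1, −0.0291 to 0.0880 for Ern1, −0.0441 to 0.00540 for Atf4, −0.00241 to 0.0601 for Hsph1, −0.123 to 0.00415 for Hspa8, −0.110 to 0.00183 for Hsp90aa1, −0.0686 to 0.00345 for Hspd1 and −0.0118 to 0.158 for Hspe1.

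The counts of calls moved more. Without the series term, 2260 genes were called in place of 466, and 11 of the 36 in place of 3, of them 7 ER chaperones, 1 degradation gene (Herpud1), 2 transducers (Atf6 and Xbp1) and 1 cytosolic gene (Dnajb1), where 14% of all genes were called. With 4 name prefixes as the term 165 genes were called, and with array quality weights 258, each with 1 of the 36, Dnajc3, so 1 ER chaperone and 0 transducers. Atf6 also lost its call, leaving 0 transducers, with no filter on low values, quantile normalisation and median-ratio rescaling. Leaving out 1 library gave 42 (without mutant replicate 1) to 371 genes, 97 without control replicate 4, 0 to 1 of the 36, 0 to 1 ER chaperones, 0 transducers and 0 to 3 other pathway genes. Of those other pathway genes, 2 in the reported fit, 1 was called with no filter and with median-ratio rescaling, 17 without the series term, 0 with prefixes and 0 with weights. The cause of these shifts was not tested.

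The correlations of same-numbered libraries were −0.39, −0.08, 0.07 and 0.41. Differently numbered libraries were not compared, so these values cannot decide whether the replicate numbers of the labels pair the libraries. With the replicate block in place of the series, control replicate 5 stood alone in its block. That fit called 1405 genes (8.67%), 5 of the 36 (Hspa5, Pdia4, Dnajc3, Atf6 and Dnajb1, so 1 cytosolic gene) and 9 other pathway genes.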
